A study of Mus musculus with 4 samples.

Results

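Chemokine receptors are G protein-coupled receptors that steer leukocytes along gradients of chemokines. The 9 receptor genes described here, Ccr1, Ccr2, Ccr7, Ccr9, Cx3cr1, Cxcr3, Cxcr4, Cxcr6 and Xcr1, were picked by symbol from the 32285 genes of the RNA matrices of mouse liver leukocytes, and 58 regions of open chromatin within 10 kb of their start sites came with them. All were read in the same nuclei, since the 10x Multiome assay captures nuclear RNA and transposase-accessible DNA (ATAC) from one nucleus. The nuclei came from live liver cells of C57BL/6J mice, sorted as CD45+ CD64- CD11c+, a gate that enriches dendritic cells (DCs).

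The D0 library came from mice without DDC (0 days) and the D5 library from mice given 3,5-diethoxycarbonyl-1,4-dihydrocollidine (abbreviated DDC), which injures the bile ducts, at 0.1% of the chow for 5 days. The animals of the study were 6 to 12 weeks old. The study used males for its single-cell work. The number of animals behind a library was not given. With 1 library per day, a D5 to D0 difference is a difference between libraries and cannot be told apart from one between preparations. No test across animals was possible, and each value carries an exact 95% interval for counting error alone. "Beyond counting error" means that this interval of a ratio leaves out equality.

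Chemokine receptors couple mainly to inhibitory G proteins, and several accept more than 1 ligand. CCR7 leads matured DCs toward CCL19 and CCL21 in lymphatics and lymph nodes, XCR1 on conventional type 1 DCs (cDC1) answers XCL1 from natural killer (NK) and T cells, and CCR9 answers CCL25 in thymus and small intestine and is carried by plasmacytoid DCs (pDCs). CXCR6 and CXCR3 guide lymphocytes: the liver sinusoid presents the CXCR6 ligand CXCL16, and interferon induces the CXCR3 ligands CXCL9 and CXCL10. CCR2, CCR1 and CX3CR1 are known from monocytes and cells that descend from them, CCR2 also from DC precursors, and CXCR4 answers CXCL12 in most leukocytes.

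The promoters of 4 receptors are printed because, as described below, the RNA level of each was highest in 1 or 2 classes. Each run is 300 bases 5′ to 3′ on the strand of the gene, from 250 bases before the start site to 50 after it, from RefSeq on GRCm38.p6 (mm10), whose table held no entry for Ccr7. The windows are chr9:123861980-123862279 on the minus strand for Xcr1, chr9:123766961-123767260 on the plus strand for Ccr9, chr9:123806227-123806526 on the plus strand for Cxcr6 and chrX:101734098-101734397 on the minus strand for Cxcr3. Capitals mark letters that matched, on either strand, GGAAGT or GAGGAAGT (ETS factors), TGTGGT (RUNX) or the NFkB pattern of GGG and CC parted by 5 bases of any kind.
Xcr1: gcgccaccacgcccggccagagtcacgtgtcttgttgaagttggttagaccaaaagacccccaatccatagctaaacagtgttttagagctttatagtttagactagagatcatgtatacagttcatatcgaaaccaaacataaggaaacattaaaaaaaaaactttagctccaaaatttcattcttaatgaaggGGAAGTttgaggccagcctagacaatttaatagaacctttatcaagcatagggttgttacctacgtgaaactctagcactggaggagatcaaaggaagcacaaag
Ccr9: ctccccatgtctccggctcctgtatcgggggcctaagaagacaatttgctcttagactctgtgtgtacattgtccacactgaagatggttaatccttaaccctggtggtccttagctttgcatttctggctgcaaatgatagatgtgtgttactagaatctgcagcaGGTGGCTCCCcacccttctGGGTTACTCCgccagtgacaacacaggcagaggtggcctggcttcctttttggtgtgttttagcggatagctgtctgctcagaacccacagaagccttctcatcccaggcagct
Cxcr6: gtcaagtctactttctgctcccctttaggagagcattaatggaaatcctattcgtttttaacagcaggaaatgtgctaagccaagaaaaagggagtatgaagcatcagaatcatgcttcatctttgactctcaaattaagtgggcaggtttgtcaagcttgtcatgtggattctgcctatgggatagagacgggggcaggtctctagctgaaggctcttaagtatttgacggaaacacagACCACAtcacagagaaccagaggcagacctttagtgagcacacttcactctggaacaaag
Cxcr3: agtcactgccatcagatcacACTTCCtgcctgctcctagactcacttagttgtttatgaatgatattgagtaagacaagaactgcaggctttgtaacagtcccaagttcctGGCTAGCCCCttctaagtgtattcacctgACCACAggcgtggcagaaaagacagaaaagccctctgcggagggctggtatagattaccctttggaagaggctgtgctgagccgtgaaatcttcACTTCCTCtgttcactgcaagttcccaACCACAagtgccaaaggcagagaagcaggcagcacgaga

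GGAAGT occurred in the windows of Xcr1 and Cxcr3, and in 23.8% of all 32851 mouse promoter windows. The longer GAGGAAGT, which contains GGAAGT, occurred just before the start of Cxcr3, from -16 to -9, and in 3.20% of windows. TGTGGT occurred in those of Cxcr3, Cxcr6, Ccr1 and Cx3cr1, and in 16.8% of windows. The NFkB pattern was found in those of Ccr9, Cxcr3, Ccr1 and Cx3cr1 and in 50.8% of all windows. No member window held the IRF pattern of 2 GAAA parted by 2 bases, TGANTCA (AP-1) or AGGTGT (T-box), which occurred in 3.44%, 7.81% and 13.7% of windows. Of the 8 members with a window in the table, Cxcr4 stood apart in base composition with 20 CG pairs, a number that 26.5% of all promoters reach, and the other 7 had 1 to 6, below the median of 7. A match to these letters describes the sequence and does not show a bound site. Ccr1, Ccr2, Ccr9, Cxcr6 and Xcr1 start within 334.707 kb of each other on chromosome 9.

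After filters on depth, mitochondrial RNA and doublet score, 10982 D0 and 19832 D5 nuclei remained, with medians of 1732 and 2556 RNA molecules (unique molecular identifiers, UMIs) and 9142.5 and 7124 counts in peaks. Clustering on RNA, with the 9 receptors left out of the genes used, gave 21 clusters. Of these, 15 were named "-like" from markers that include none of the 9 receptors. Differences between classes are descriptions and were not tested across animals. The classes with at least 50 nuclei on both days were cDC1-like (1568 at D0, 2854 at D5), cDC2-like (2401, 8349), preDC-like (219, 1521), mature DC-like (326, 1099), pDC-like (2336, 2035), NK cell-like (1545, 1150), T cell-like (345, 427), macrophage-like (761, 1308) and nonclassical monocyte-like (106, 175). Neutrophil-like nuclei reached 89 at D5 and 5 at D0. Ptprc (CD45) and Itgax (CD11c) were present in all 9 classes, Itgax at 97.2 to 363 CPM (the count of a gene scaled to a common total of its class and day), while Fcgr1 (CD64), which the gate selects against, still reached 42.1 CPM at D0 and 77.8 CPM at D5 in macrophage-like nuclei. Only 5 of the 10 macrophage markers reached 20 CPM there. Depth per nucleus was higher at D5, between 35.3% and 93.9% of the nuclei of a class held at least 2 markers of another class, and 591 barcode sequences occurred in both libraries. The part of these in the results below was not tested except where a value is given. Markers of another class included NK markers in T cell-like nuclei. They also included pDC markers in preDC-like nuclei, some of which were used to name that class.

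**Figure D1:**
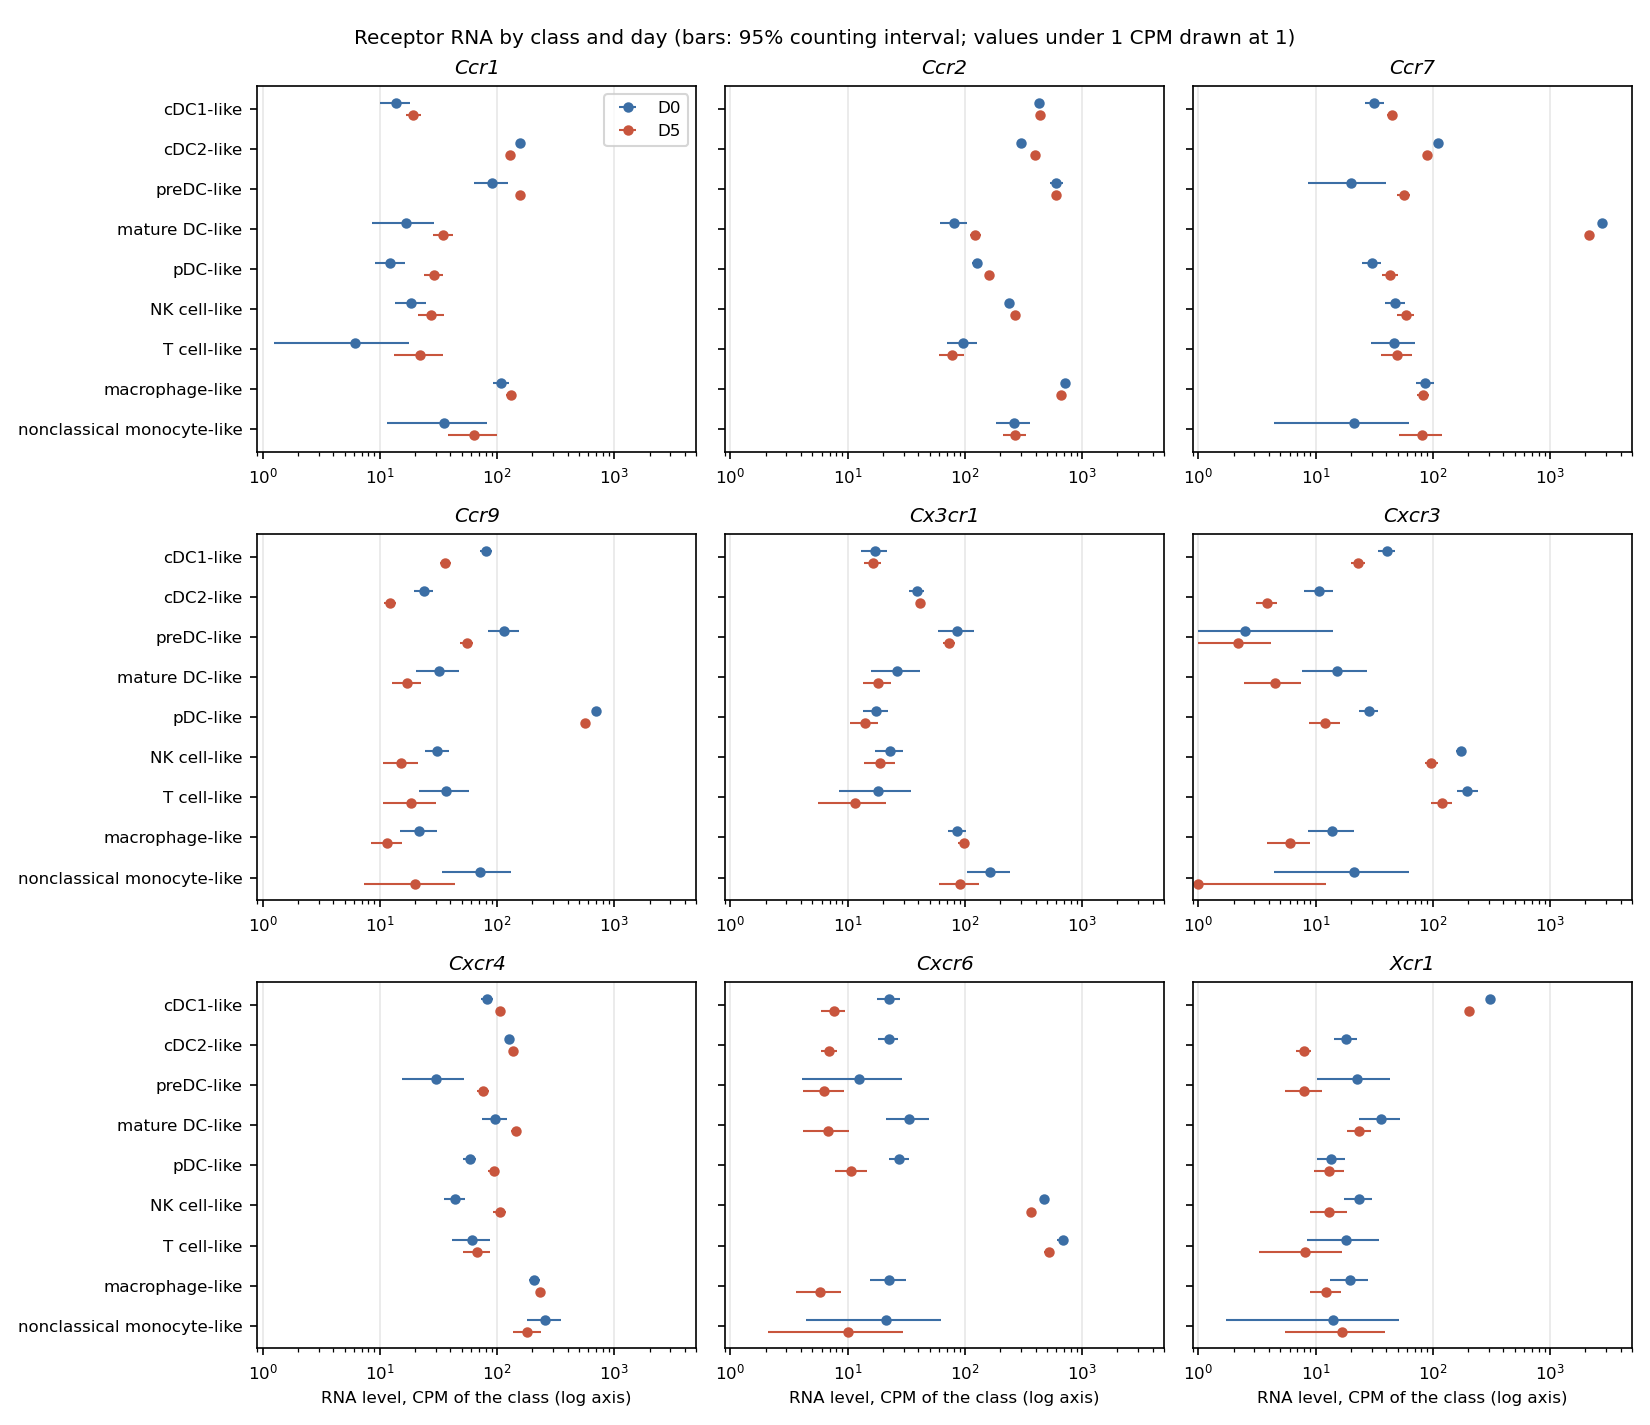
RNA level of the 9 receptors in the 9 classes, in CPM of the class on a log axis, with D0 in blue and D5 in red; bars are 95% counting intervals and values under 1 CPM are drawn at 1. Ccr7 stood at 2793 and 2154 CPM in mature DC-like nuclei, Cxcr6 and Cxcr3 were highest in the T cell-like and the NK cell-like nuclei, and Ccr2 and Cxcr4 were spread over many classes.

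Ccr7 marked the mature DC-like nuclei. Its RNA reached 2793 CPM (2673 to 2918) there at D0 and 2154 CPM (2102 to 2206) at D5. The class next in order, cDC2-like, held 111.7 CPM and 88.5 CPM, so the gap was 25.0-fold and 24.3-fold. No other class passed 90 CPM. A Ccr7 molecule was found in 94.5% of mature DC-like nuclei at D0 and 87.0% at D5, and in 85.3% and 74.0% once every nucleus was thinned to 1000 UMIs, against 3.43% and 4.26% of thinned NK cell-like nuclei. The D5 level was lower by a log2 difference of -0.38 (-0.45 to -0.30). In the 3 depth groups with at least 50 nuclei on both days the same order held, at 2810 against 2563 CPM, 2898 against 2440 CPM and 2501 against 1748 CPM, and the shallowest group had 3107 CPM at D0. The summed level of the 11 mature DC markers in this class was also lower at D5, 3003 against 5489 CPM.

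In cDC2-like nuclei, too, Ccr7 was lower at D5, by a log2 difference of -0.34 (-0.47 to -0.20). The class held its clusters in other proportions on the 2 days, and by cluster Ccr7 was lower in the Clec10a+ cluster (174 and 136 CPM, -0.35) and did not differ beyond counting error in the other 3. Ccr7 was higher at D5 in cDC1-like nuclei, 45.2 against 31.8 CPM (0.51, 0.21 to 0.82), in pDC-like nuclei, 43.4 against 30.3 CPM (0.52, 0.17 to 0.87), and in preDC-like nuclei, 56.5 against 20.1 CPM (1.49, 0.49 to 2.72), the last with 8 UMIs at D0. The cDC1-like difference lay in the larger of the 2 clusters described below (33.3 and 49.5 CPM, 0.57), while in the smaller 28.6 and 23.2 CPM did not differ beyond counting error. In nonclassical monocyte-like nuclei 21.3 CPM, from 3 UMIs, stood beside 80.3 CPM at D5 (1.92, 0.20 to 4.29). NK cell-like, T cell-like and macrophage-like nuclei did not differ beyond counting error. Ccr7 was thus lower at D5 in the 2 classes with the most of its RNA and higher in 4 classes with less. Over the 8 classes other than mature DC-like, its median was 39.3 CPM at D0 and 57.6 CPM at D5. These were 27.8% and 30.8% of its level over all nuclei of the day (141 and 187 CPM). Free RNA as a source of the low-level rises was not tested.

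Xcr1 was highest in cDC1-like nuclei. Its level there was 308 CPM (290.2 to 327) at D0 and 204 CPM (195 to 213) at D5, and the fall of -0.60 on the log2 scale (-0.71 to -0.49) lay beyond counting error. At D0 mature DC-like nuclei followed at 36.0 CPM, 8.56-fold lower, and at D5 neutrophil-like nuclei followed at 51.4 CPM from 9 UMIs. Thinned to 1000 UMIs, 25.4% of cDC1-like nuclei at D0 and 16.5% at D5 held an Xcr1 molecule, compared with 1.24% and 1.38% of pDC-like nuclei. As counted, with more UMIs per nucleus at D5, the shares were 43.2% and 41.6%. At like depth Xcr1 was lower at D5 in each of 4 depth groups, from 274 to 149 CPM in nuclei of 1000 to 1500 UMIs and from 289.5 to 223 CPM in those of 3000 or more. The 8 cDC1 markers summed to 5644 CPM at D0 and 4192 CPM at D5 in the same nuclei. Of all Xcr1 UMIs, cDC1-like nuclei held 52.2% at D0 and 71.9% at D5. The unnamed clusters whose highest marker list was that of cDC1 held 484 and 43, 341 and 545, and 224 and 86 nuclei at D0 and D5.

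The cDC1-like nuclei fell into 2 clusters that differed in more than Xcr1. The smaller one, led by Ppef2 and Tlr11 (534 and 474 nuclei), exceeded the larger, led by P3h2 and Esyt3 (1034 and 2380 nuclei), in Xcr1 at 347 against 289 CPM at D0 and 250.1 against 195 CPM at D5. It also held more Ccr2 (556 against 369 CPM, then 606 against 407 CPM), more Ccr9 (104 against 68.3 CPM, then 57.1 against 32.3 CPM) and more Cxcr3 (65.6 against 28.3 CPM, then 43.1 against 19.1 CPM). Cxcr4 ran the other way, at 66.4 against 89.96 CPM at D0 and 41.1 against 118 CPM at D5. Ccr7 did so at D5 with 23.2 against 49.5 CPM, while 28.6 against 33.3 CPM at D0 lay within counting error. The order within cDC1-like nuclei therefore was not one of overall receptor content.

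Ccr9 was highest in pDC-like nuclei, at 693 CPM (667 to 720.0) at D0 and 565 CPM (541 to 589) at D5, a log2 difference of -0.30 (-0.38 to -0.21). Of thinned pDC-like nuclei 45.4% at D0 and 39.5% at D5 held a Ccr9 molecule, against 3.50% and 1.30% of NK cell-like nuclei. It was lower at D5 in all 4 depth groups, for example 722 and 530.2 CPM in nuclei of 1000 to 1500 UMIs. PreDC-like nuclei were second at 115 and 55.0 CPM, 1.44-fold and 1.52-fold above cDC1-like nuclei at 80.2 and 36.3 CPM. The log2 differences in these classes had intervals below that of pDC-like nuclei, at -1.07 (-1.53 to -0.58) in preDC-like and -1.14 (-1.37 to -0.91) in cDC1-like nuclei. The pDC markers, 3 of which are also on the preDC list, summed to 6199 CPM at D0 and 3648 CPM at D5 in preDC-like nuclei, while they stood at 12769 and 12341 CPM in pDC-like nuclei.

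Cxcr6 was confined to no single class but separated lymphocyte-like nuclei from the rest. T cell-like nuclei held 685 CPM (614 to 763) at D0 and 519 CPM (472 to 569) at D5, and NK cell-like nuclei 469 CPM (441 to 498) and 366 CPM (342 to 391). T cell-like nuclei led by 1.46-fold and 1.42-fold, beyond counting error on both days. NK cell-like nuclei in turn exceeded the third class, mature DC-like, 14.1-fold at D0. At D5 the third class was neutrophil-like at 34.3 CPM from 6 UMIs, a class too small to compare at D0, and pDC-like nuclei followed at 10.8 CPM. The D5 level was lower by -0.40 (-0.61 to -0.19) in T cell-like and -0.36 (-0.49 to -0.23) in NK cell-like nuclei. The NK result varied with depth: in nuclei of 1000 to 1500 UMIs Cxcr6 was 550.1 CPM at D0 and 389 CPM at D5, whereas in those of 2000 to 3000 UMIs it was 341 and 426 CPM. The intervals of the latter group overlapped (282 to 408 and 374 to 484 CPM), so a reversal there was within counting error.

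Cxcr3 followed the same classes at lower values. It stood at 197 CPM (160.0 to 241) in T cell-like and 173 CPM (156 to 191) in NK cell-like nuclei at D0, and at 119 CPM (97.4 to 145) and 97.1 CPM (85.0 to 110.5) at D5. The levels in these 2 classes did not differ beyond counting error on either day, and NK cell-like nuclei exceeded cDC1-like nuclei 4.25-fold and 4.22-fold. The D5 values were lower by -0.73 (-1.14 to -0.31) in T cell-like and -0.83 (-1.07 to -0.59) in NK cell-like nuclei. Unlike Cxcr6, Cxcr3 in NK cell-like nuclei was lower at D5 in each of 4 depth groups, from 202 to 123 CPM in the shallowest and from 104 to 66.0 CPM in the deepest. The NK markers summed to 5970 and 5662 CPM in NK cell-like nuclei, and the T cell markers to 2296 and 2176 CPM in T cell-like nuclei. The T cell-like nuclei also held NK markers at 5447 and 5065 CPM, close to the NK cell-like sum, so the 2 classes are told apart by the T cell markers and not by those of NK cells. In the other classes the NK markers summed to 461 to 1108 CPM.

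Both transcripts were scarce in the classes without lymphocyte markers, and both were lower at D5 beyond counting error in cDC1-like, cDC2-like, mature DC-like, pDC-like and macrophage-like nuclei. In preDC-like and nonclassical monocyte-like nuclei the counts were too few or the difference lay within counting error. Cxcr6 had an off-class median of 22.4 CPM at D0 and 6.96 CPM at D5, which was 21.2% and 22.1% of its level over all nuclei of the day (105 and 31.5 CPM). For Cxcr3 the medians were 15.2 and 4.51 CPM, or 31.0% and 32.0% of 49.1 and 14.1 CPM. The same off-class medians were 34.2 and 17.8 CPM for Ccr9 (19.0% and 29.2% of its library level) and 19.0 and 12.7 CPM for Xcr1 (20.8% and 26.8%). NK cell-like nuclei made up 14.1% of D0 and 5.80% of D5 nuclei. The off-class levels of Cxcr6 and Cxcr3 thus kept a like share of the library level on both days. The low-level falls, such as -1.68 for Cxcr6 and -1.47 for Cxcr3 in cDC2-like nuclei, moved with that level, and free RNA as their source was not tested.

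Cxcr3 and Cxcr6 were also counted together nucleus by nucleus. Among thinned NK cell-like nuclei at D0, 42.8% of the 243 nuclei with Cxcr3 also held Cxcr6, against 34.7% of those without. At D5 the shares were 28.0% and 29.2%. In T cell-like nuclei they were 47.7% and 46.8% at D0, and 40.5% and 39.2% at D5.

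**Figure D2:**
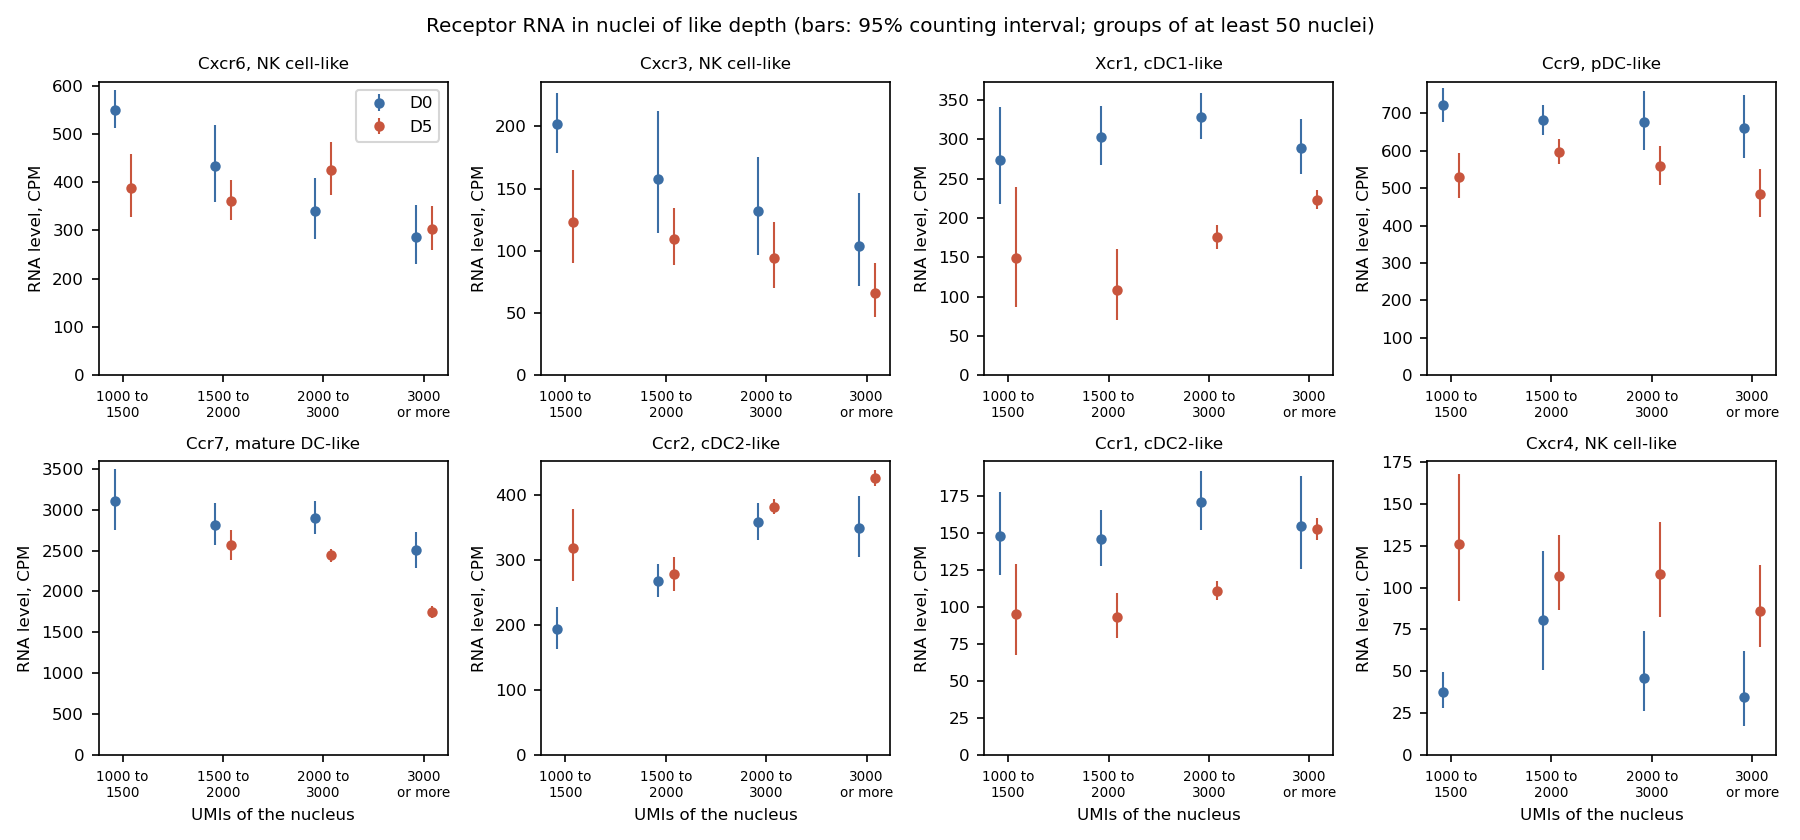
RNA level, in CPM, of 8 receptor and class pairs in nuclei grouped by UMIs per nucleus, D0 in blue and D5 in red, with 95% counting intervals and only groups of at least 50 nuclei. Xcr1 in cDC1-like, Ccr9 in pDC-like and Cxcr3 in NK cell-like nuclei were lower at D5 at each depth, Cxcr4 in NK cell-like nuclei was higher at each depth, and Cxcr6 in NK cell-like nuclei had the higher value at D5 from 2000 UMIs upward, where the intervals overlapped.

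Ccr2 was spread over the classes: its highest level was 8.97-fold its lowest at D0, where the same ratio was 8.47 for Cxcr4, 9.59 for Cx3cr1 and 139 for Ccr7. Macrophage-like nuclei were first with 720.1 CPM (678 to 764) at D0 and 663 CPM (637 to 689) at D5, followed by preDC-like nuclei at 602 and 596 CPM, cDC1-like nuclei at 431 and 439 CPM and cDC2-like nuclei at 299 and 393 CPM. Each of these neighbours differed beyond counting error on both days, but at D5 preDC-like nuclei came first without nuclei that held markers of another class, and also among nuclei of 1000 to 2000 UMIs. Ccr2 was lowest in mature DC-like nuclei at D0, 80.2 CPM, and in T cell-like nuclei at D5, 77.6 CPM. It was higher at D5 in cDC2-like nuclei by 0.40 (0.32 to 0.48), in mature DC-like nuclei by 0.62 (0.21 to 1.04) and in pDC-like nuclei by 0.35 (0.18 to 0.52). In macrophage-like nuclei it was lower by -0.12 (-0.22 to -0.02), which became 0.11 with the alternative scaling described below. At like depth, Ccr2 in macrophage-like nuclei was lower at D5 below 3000 UMIs, at 634 and 367 CPM in the shallowest group. In the deepest group it was higher at D5, 605 and 710 CPM, and the intervals overlapped from 2000 UMIs upward. In cDC2-like nuclei of like depth Ccr2 was higher at D5 in all 4 groups, from 193 to 318 CPM in the shallowest to 349 to 425 CPM in the deepest. In the groups of 1500 to 2000 UMIs (267 and 277 CPM) and 2000 to 3000 UMIs (358 and 381 CPM) the intervals overlapped.

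Ccr1 divided the conventional DCs. cDC2-like nuclei held 157 CPM (145.5 to 168) at D0 and 129 CPM (124 to 133) at D5, and cDC1-like nuclei 13.6 and 19.4 CPM. Macrophage-like nuclei had 108.5 and 131.5 CPM. At D5 neutrophil-like nuclei were first with 326 CPM (247 to 422), 2.08-fold over preDC-like nuclei at 157 CPM, and macrophage-like and cDC2-like nuclei did not differ. The D5 level was lower in cDC2-like nuclei as a class, by -0.28 (-0.40 to -0.16), although in their cluster led by Il1r2 and Dab2, which was 289 of 2401 nuclei at D0 and 2422 of 8349 at D5, Ccr1 was higher at D5 (78.8 and 129 CPM, 0.72). With the alternative scaling described below, the cDC2-like class difference lay within counting error. As a class value Ccr1 was higher in preDC-like nuclei, by 0.79 (0.31 to 1.32), and pDC-like nuclei, by 1.23 (0.73 to 1.75). In mature DC-like nuclei 16.6 CPM at D0 stood beside 34.8 CPM at D5 (1.07, 0.20 to 2.06). In T cell-like nuclei the value rested on 3 UMIs at D0.

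On the CPM scale Cx3cr1 did not differ between days beyond counting error in any class tested. With the alternative scaling described below, Cx3cr1 was higher at D5 beyond counting error in macrophage-like and cDC2-like nuclei. At D0 nonclassical monocyte-like nuclei led with 163 CPM (103 to 245), 1.89-fold over macrophage-like nuclei at 86.2 CPM. At D5 macrophage-like (97.4 CPM), nonclassical monocyte-like (90.4 CPM) and preDC-like (73.6 CPM) nuclei were not separated from their neighbours in that order, and preDC-like nuclei exceeded cDC2-like nuclei 1.78-fold. The widest day difference, -0.85 in nonclassical monocyte-like nuclei, had an interval of -1.71 to 0.02, so a fall of more than 3-fold and no fall were both within counting error.

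Cxcr4 was present in every class. It was highest in nonclassical monocyte-like (255 CPM, 179 to 353) and macrophage-like nuclei (208 CPM, 186 to 232) at D0, which did not differ, and macrophage-like nuclei exceeded cDC2-like nuclei (128 CPM) 1.63-fold. At D5 neutrophil-like nuclei reached 434 CPM (342 to 543), 1.87-fold above macrophage-like nuclei at 233 CPM. Cxcr4 was higher at D5 in NK cell-like nuclei, 105 against 43.5 CPM (1.27, 0.93 to 1.62). It stood at 126 against 37.6 CPM in nuclei of 1000 to 1500 UMIs and at 107 against 80.7 CPM in those of 1500 to 2000. It was higher at D5 at each depth, although the intervals of the latter group overlapped. It was also higher in preDC-like (1.34, 0.52 to 2.31), pDC-like (0.69, 0.44 to 0.93), mature DC-like (0.60, 0.23 to 0.99) and cDC1-like nuclei (0.36, 0.17 to 0.55), although in the smaller cDC1-like cluster it was lower at D5 (66.4 and 41.1 CPM, -0.69) and only in the larger one higher (89.96 and 118 CPM, 0.39). In NK cell-like nuclei Cxcr4 therefore moved opposite to Cxcr3 and, over all depths together, to Cxcr6. The neutrophil markers in NK cell-like nuclei summed to 4.31 and 58.3 CPM on the respective days, beside 9534 CPM in neutrophil-like nuclei at D5, and their part in the Cxcr4 difference was not tested.

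**Figure D3:**
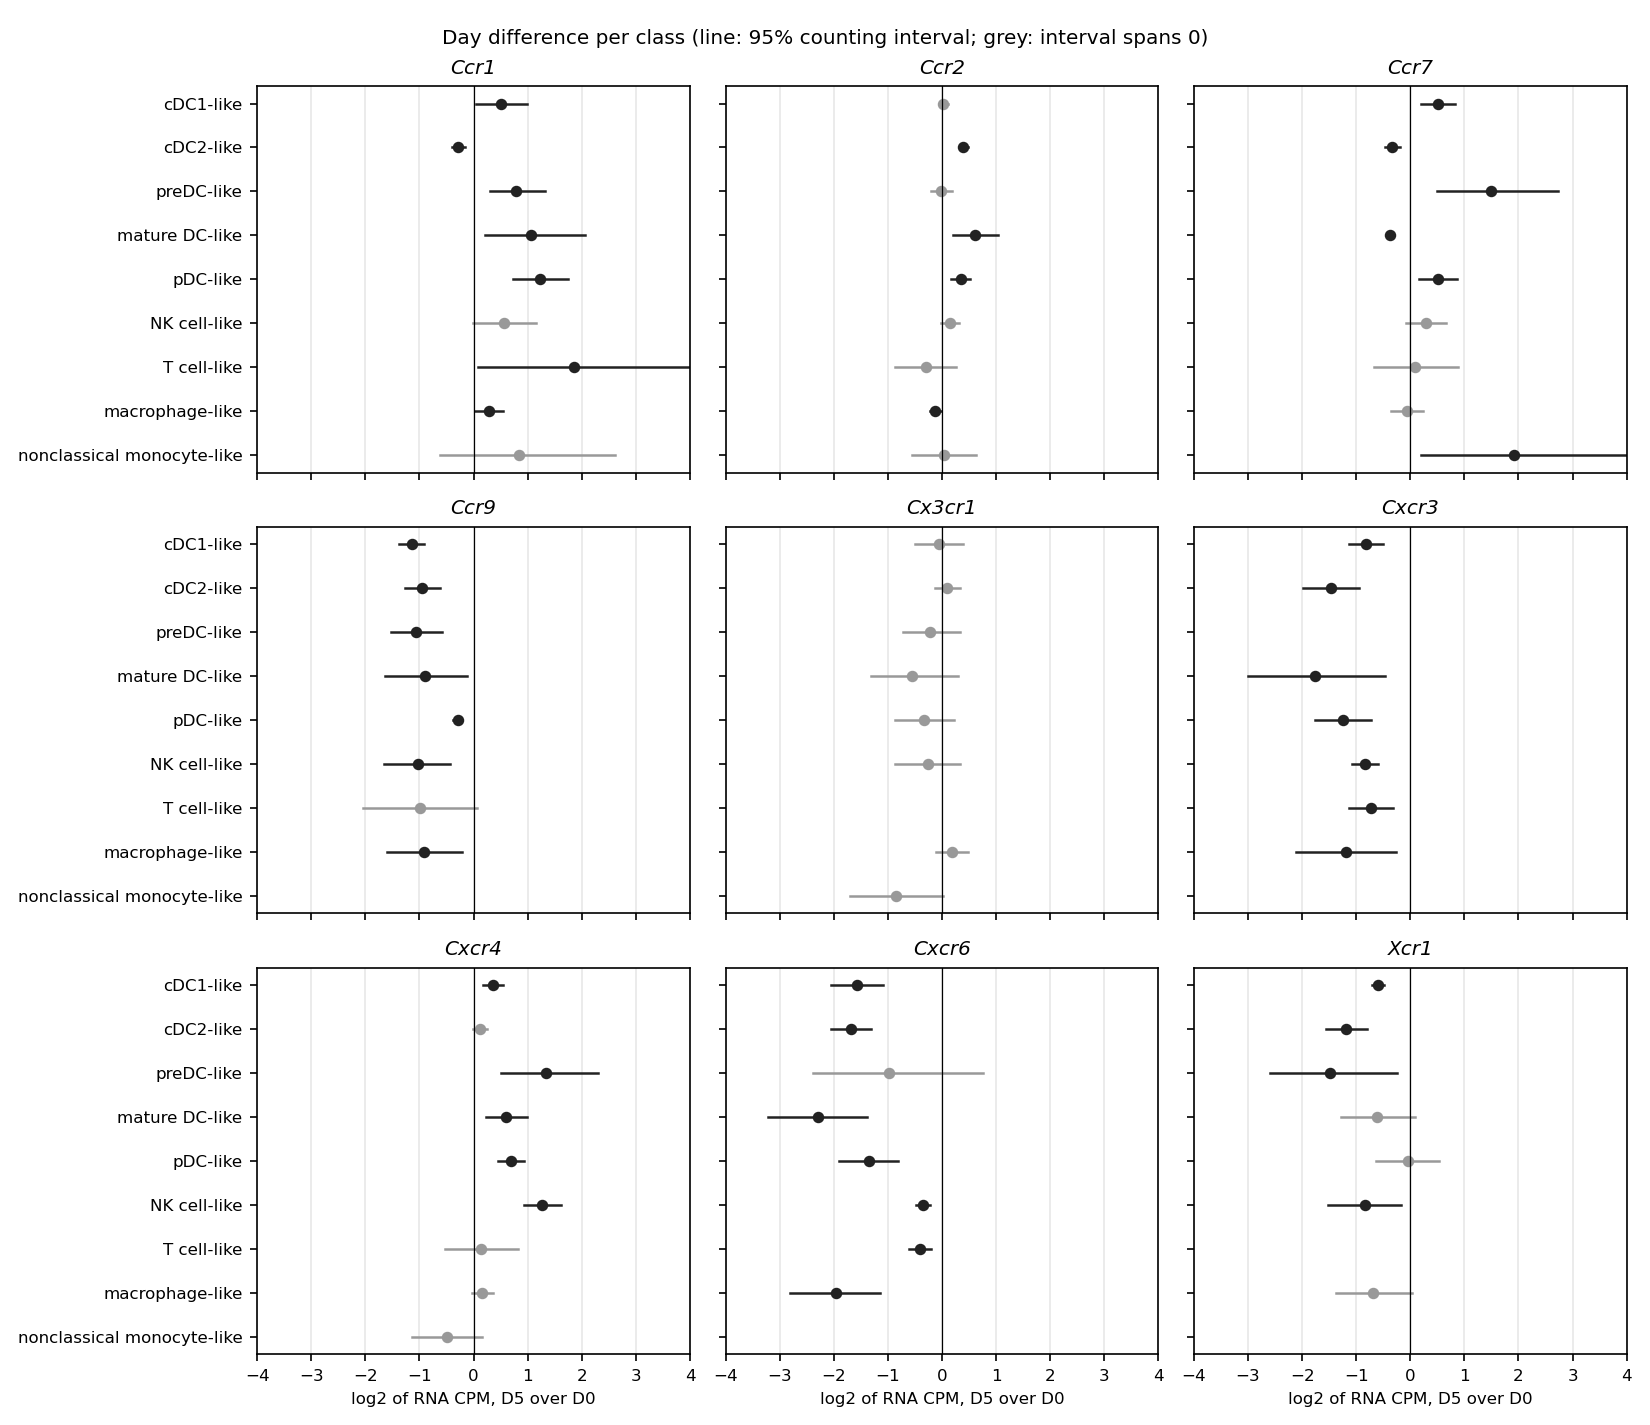
Log2 ratio of D5 to D0 RNA CPM for each receptor and class with at least 20 UMIs over both days; lines are 95% counting intervals, drawn grey where they span 0, and 2 upper ends run past the axis. Ccr9, Cxcr3, Cxcr6 and Xcr1 lie to the left of 0 in nearly all classes, Ccr1 and Cxcr4 mostly to the right, and all Cx3cr1 intervals span 0.

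Of 74 receptor and class pairs with at least 20 UMIs, 12 were at least 1.5-fold higher at D5 and 27 at least 1.5-fold lower, while over all genes and classes 8.35% were higher and 19.1% lower. The interval of the ratio left out equality for 18 higher and 29 lower pairs, against 8.82% and 23.5% of all genes. In cDC1-like, cDC2-like and macrophage-like nuclei the same 4 of 9 receptors, Ccr9, Cxcr3, Cxcr6 and Xcr1, were past 1.5-fold lower and none higher, beside 22.7%, 20.8% and 23.4% of all genes lower and 5.05%, 5.91% and 6.29% higher. In mature DC-like nuclei these 4 were lower (16.1% of all genes) and Ccr1, Ccr2 and Cxcr4 higher (13.8%). In preDC-like nuclei Ccr9, Cxcr6 and Xcr1 of 8 tested were lower (21.4%) and Ccr1, Ccr7 and Cxcr4 higher (13.6%).

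In pDC-like nuclei Cxcr3 and Cxcr6 were past 1.5-fold lower (12.1% of all genes) and Ccr1 and Cxcr4 higher (6.01%). In NK cell-like nuclei Ccr9, Cxcr3 and Xcr1 were lower (17% of all genes) and Cxcr4 higher (5.76%). In T cell-like nuclei, of 7 receptors tested, Ccr9 and Cxcr3 were lower (17.9%) and Ccr1 higher (10.4%). In nonclassical monocyte-like nuclei, of 5 tested, Cx3cr1 was lower (20.5%) and Ccr1 and Ccr7 higher (15.1%). Here the Cx3cr1 difference lay within counting error, and the Ccr1 levels, 35.4 CPM at D0 and 63.6 CPM at D5, had overlapping intervals. The median log2 difference of the receptors lay between -0.54 in mature DC-like and 0.03 in nonclassical monocyte-like nuclei, and that of all genes tested between -0.23 and -0.06. Since the median gene was lower at D5 in every class, the trimmed mean of M-values (TMM) scaling, which sets aside the genes that move most, shifted all ratios up by 0.07 to 0.23. Of all calls past 1.5-fold, 30.4% were higher with CPM and 51.4% with TMM, and the receptor pairs became 18 higher and 23 lower. With TMM, Ccr1, Ccr7 and Cxcr4 were past 1.5-fold higher in cDC1-like nuclei (11.3% of all genes) and Ccr2 in cDC2-like nuclei (11.8%). Xcr1 was then no longer past 1.5-fold lower in cDC1-like, mature DC-like and macrophage-like nuclei.

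**Figure D4:**
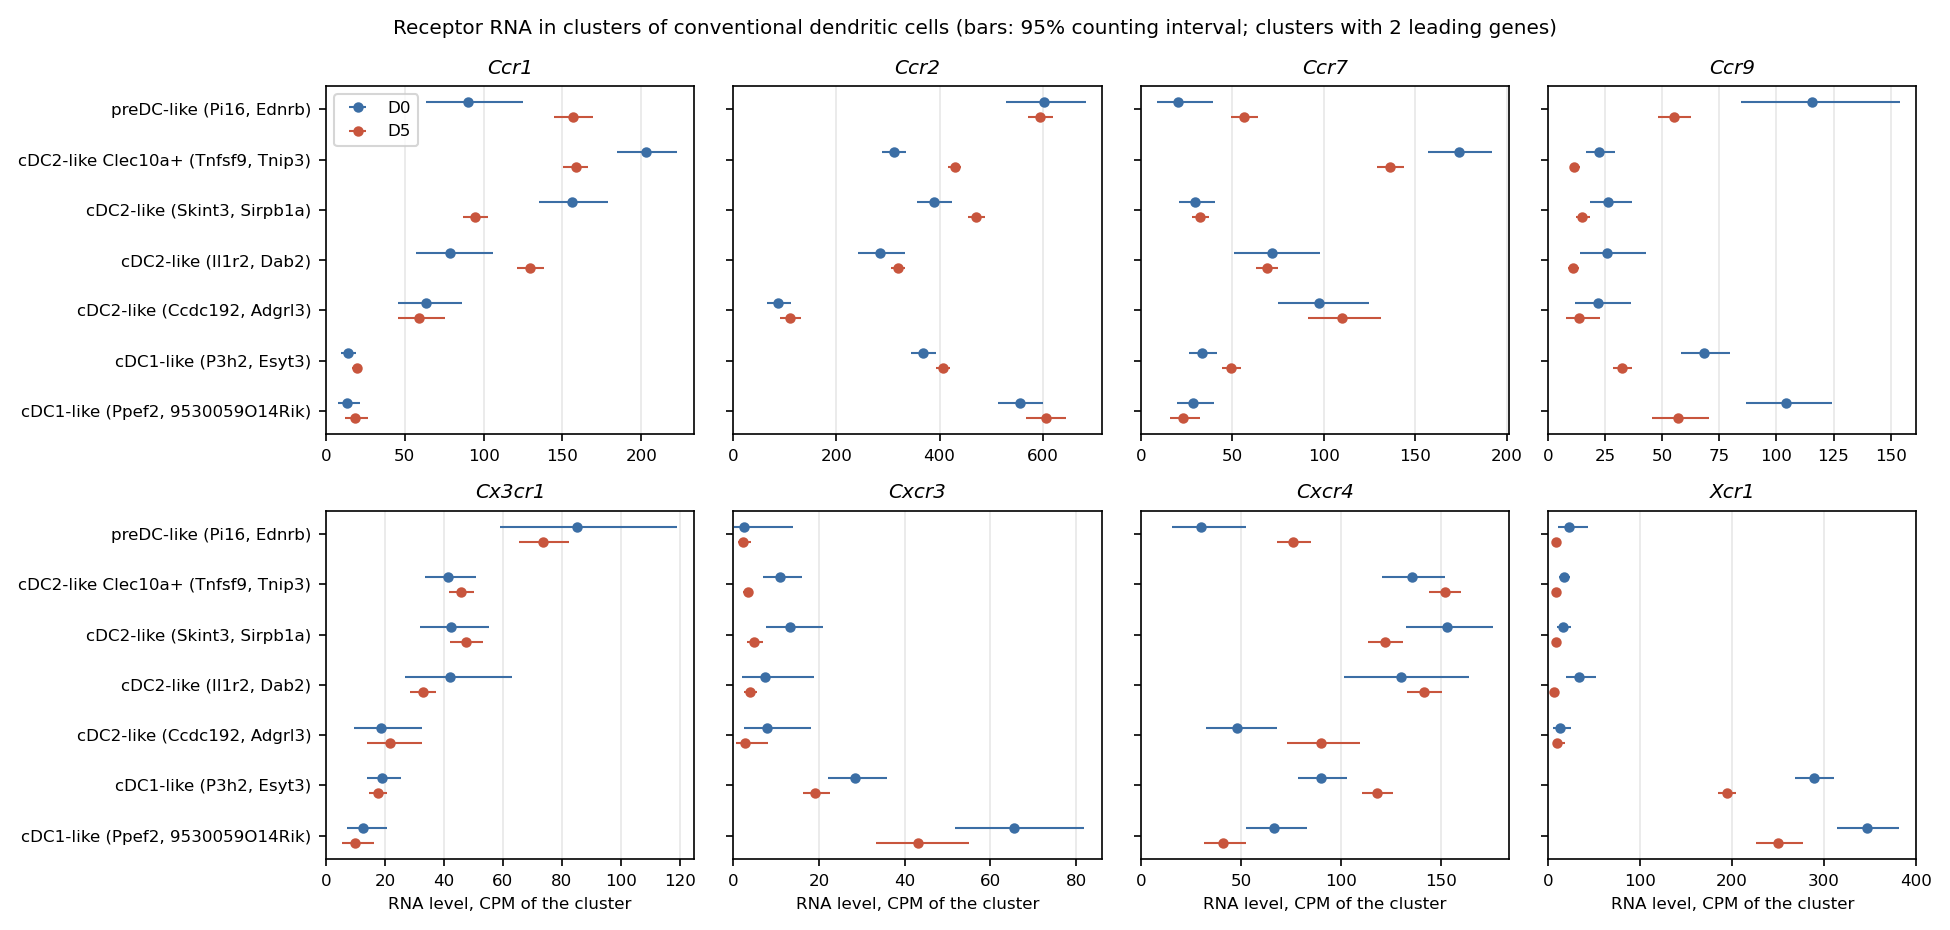
RNA level, in CPM on a linear axis, of 8 receptors in the 7 clusters of preDC-like, cDC2-like and cDC1-like nuclei, each named with 2 leading genes; D0 is blue, D5 is red, and bars are 95% counting intervals. At D0 Ccr7 and Ccr1 peak in the Clec10a+ cDC2-like cluster, and Ccr9 and Cx3cr1 in the preDC-like cluster.

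The receptors also varied among cDC2-like states. The preDC-like cluster, led by Pi16 and Ednrb, was set against the Clec10a+ cDC2-like cluster led by Tnfsf9 and Tnip3 (1070 nuclei at D0, 3196 at D5). PreDC-like nuclei held more Ccr2, 602 against 311 CPM at D0 (log2 0.95, 0.74 to 1.17) and 596 against 429 CPM at D5 (0.47, 0.40 to 0.55). The 7 classical monocyte markers, of which 4 had a UMI in preDC-like nuclei at D0, summed to 627 and 454 CPM in this class. Ly6c2 among them is also on the preDC list that named this class, so the sum is not independent of the naming. In cDC2-like nuclei the 7 markers summed to 224 and 258 CPM, and in macrophage-like nuclei, which held the most Ccr2, to 471 and 420 CPM. Their part in the Ccr2 and Cx3cr1 levels was not tested. PreDC-like nuclei also held more Ccr9 (2.38 at D0 and 2.27 at D5) and more Cx3cr1 (1.04 and 0.68), and less Ccr7 (-3.11 and -1.27) and Cxcr4 (-2.17 and -0.99). Ccr1 was lower in preDC-like nuclei at D0, 90.4 against 203 CPM (-1.17), and the clusters were level at D5, 157 and 158 CPM. With TMM scaling Ccr1 was lower in preDC-like nuclei at D5 as well. The gap between the states in Ccr1, Ccr2, Ccr7 and Cxcr4 was smaller at D5 than at D0, with intervals of the 2 days that did not overlap; the difference itself was not tested.

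The other cDC2-like clusters held less Ccr7 and less Ccr1 than the Clec10a+ cluster on both days, beyond counting error. The cluster led by Skint3 and Sirpb1a held 29.4 CPM of Ccr7 at D0 and 32.3 CPM at D5, where the Clec10a+ cluster held 174 and 136 CPM. It held more Ccr2 (389 against 311 CPM, then 472 against 429 CPM) and less Ccr1 (156 against 203 CPM, then 94.7 against 158 CPM). The cluster led by Il1r2 and Dab2 had 71.5 and 68.8 CPM of Ccr7 and 78.8 and 129 CPM of Ccr1. The cluster led by Ccdc192 and Adgrl3 was low in Ccr2, at 86.8 and 109 CPM. Within pDC-like nuclei, the smaller cluster held more Ccr2 than the larger, 175 against 114 CPM at D0 and 234 against 151 CPM at D5.

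Ligand, related receptor and signalling genes were read from lists that hold no member. Of 102 gene and class pairs tested on the ligand list, 14 were at least 1.5-fold higher at D5 and 42 lower, where 8.35% and 19.1% of all genes and classes were higher and lower; the same shares are the background of the lists below. The list's median log2 difference was -0.55 in cDC1-like and -0.84 in cDC2-like nuclei, beside -0.23 and -0.18 for all genes tested. Cxcl9, a CXCR3 ligand, was 262 CPM in macrophage-like nuclei at D0 and 15.2 CPM at D5, and in mature DC-like nuclei 226 and 67.3 CPM. Cxcl10 was 80.9 and 11.5 CPM in macrophage-like nuclei. The XCR1 ligand Xcl1 stayed at 2926 and 2929 CPM in NK cell-like nuclei, and the CXCR6 ligand Cxcl16 was 537 and 481 CPM in mature DC-like nuclei. Cxcl16 was past 1.5-fold higher in preDC-like (10.0 and 47.7 CPM, with 4 UMIs at D0), pDC-like (17.7 and 37.6 CPM), T cell-like (18.3 and 48.6 CPM) and nonclassical monocyte-like nuclei (42.5 and 66.9 CPM, within counting error). Ccl9, a ligand of CCR1, was past 1.5-fold higher in these 4 classes and in cDC1-like nuclei, for example 30.1 and 91.8 CPM in preDC-like nuclei. Ccl5, a ligand of CCR1, was 6204 and 5482 CPM in T cell-like nuclei, and Ccl4 3104 and 2146 CPM in NK cell-like nuclei. Cxcr3 and Cxcl9 were both past 1.5-fold lower in cDC1-like, cDC2-like, mature DC-like, pDC-like, NK cell-like, T cell-like and macrophage-like nuclei, and Cxcl10 in 5 classes. In nonclassical monocyte-like nuclei Cxcl9 was 42.5 and 60.3 CPM, with 6 UMIs at D0, and in pDC-like nuclei Cxcl10 was 9.23 and 9.72 CPM.

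Among other receptors, 2 of 15 pairs were past 1.5-fold higher and 2 lower. Ccr6, the receptor of CCL20, was 5.53 CPM at D0 and 22.2 CPM at D5 in mature DC-like nuclei. Of 12 pairs of atypical receptors, which bind chemokines without G protein signalling, 5 were lower and 0 higher. Ccrl2 of this list was 481 and 242 CPM in macrophage-like nuclei and 1354 CPM in neutrophil-like nuclei at D5. On the signalling list, 8 of 126 pairs were higher and 24 lower, close to the shares of all genes. Grk5, a receptor kinase, was 222 CPM at D0 and 52.9 CPM at D5 in cDC1-like nuclei and 149 and 45.3 CPM in macrophage-like nuclei. Rgs1, which shortens G protein signalling, was 3168 and 1951 CPM in NK cell-like nuclei.

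Over 19 class and day values, the genes most like each receptor in log2(CPM + 1) were ranked by Pearson's r among 6402 genes. The points share libraries and depth, so r is a description. Cxcr6 was most like Ctsw (r = 0.99), Gzmb and Gimap3, Ccr9 like Rbbp6 (0.96), Bcr and Dnajc13, and Ccr7 like Fxyd2 (0.94), Fscn1 and Fabp5. Xcr1 was most like P3h2 (0.91), Tlr3 and Ifi205, Cxcr3 like Jazf1 (0.92), Fam107b and Clnk, and Cxcr4 like Clec4d (0.92), Lst1 and Clec4n. Socs3 and Fth1 were among the 3 genes most like Ccr1, and Ccr2 was most like Tor1a (0.88), Fam129b and Hexa, and Cx3cr1 most like Plod3 (0.91), Lrp1 and Abca9. Fscn1 and Tlr3 were among the naming markers.

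Open chromatin at the start sites was then compared with the RNA, as CPM of all fragments in peaks. A peak covered the RefSeq start site of 8 receptors, all but Ccr2, and reached into the gene, while the other upstream regions named here lay outside the RefSeq gene. In the annotation within the files, starts of Cx3cr1 and Ccr9 lie farther upstream, within the Cx3cr1 region and beyond the Ccr9 region named below. The Ccr7 start peak, chr11:99154734-99155652 (mm10), had 47.4 at D0 and 63.04 at D5 in mature DC-like nuclei, a log2 difference of 0.41 beyond counting error, while the RNA was lower. It had 22.4 and 19.6 in cDC2-like nuclei. The peak whose nearest edge lay at -5441 bases (negative is upstream), chr11:99160518-99161416, was more restricted, at 38.7 and 48.5 in mature DC-like nuclei, 11.1 and 12.5 in cDC2-like and 9.92 and 12.9 in pDC-like nuclei.

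The Ccr9 start peak, chr9:123766737-123767622, over the promoter printed above, had 20.7 and 24.2 in pDC-like and 7.38 and 4.54 in preDC-like nuclei. A second region at -3680 bases, chr9:123762620-123763531, chosen after its values were seen, was open in both, at 36.8 and 38.9 in pDC-like and 32.7 and 18.1 in preDC-like nuclei. The preDC-like fall, -0.86 on the log2 scale, stood beside lower Ccr9 RNA in that class at D5, but the Ccr9 window there did not stay lower within 2 kb of the start. The start peak of Xcr1, chr9:123861603-123862382, had 11.6 and 8.49 in cDC1-like nuclei and 1.52 and 4.89 in mature DC-like nuclei.

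The Cxcr6 start peak, chr9:123806019-123806878, was restricted to lymphocyte-like nuclei, with 15.9 and 19.0 in NK cell-like nuclei and 14.2 and 19.3 in T cell-like nuclei. A region at 7495 bases, chr9:123813972-123814879, beyond the end of the gene and also chosen after its values were seen, was stronger, at 47.9 and 43.9 in T cell-like and 36.6 and 42.1 in NK cell-like nuclei, with at most 5.69 in the other classes. The Cxcr6 window as a whole held 93.0 and 93.6 in NK cell-like nuclei, so the lower RNA at D5 had no counterpart there. The Cxcr6 region with the highest ratio of first to second class, chr9:123799564-123800465 at -6012 bases, had 5.73 and 5.78 in cDC1-like nuclei, and this lead lay within counting error on both days. The Cxcr3 start peak, chrX:101733619-101734464, was open in pDC-like (19.8 and 23.6), T cell-like (16.8 and 23.4) and NK cell-like nuclei (14.6 and 16.2), although Cxcr3 RNA in pDC-like nuclei was 28.5 and 12.1 CPM. A further region at -2825 bases, chrX:101736972-101737878, chosen after its values were seen, was open in T cell-like (27.7 and 22.5) and NK cell-like nuclei (18.3 and 21.9) and held at most 3.72 in the other classes, pDC-like nuclei included.

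**Figure D5:**
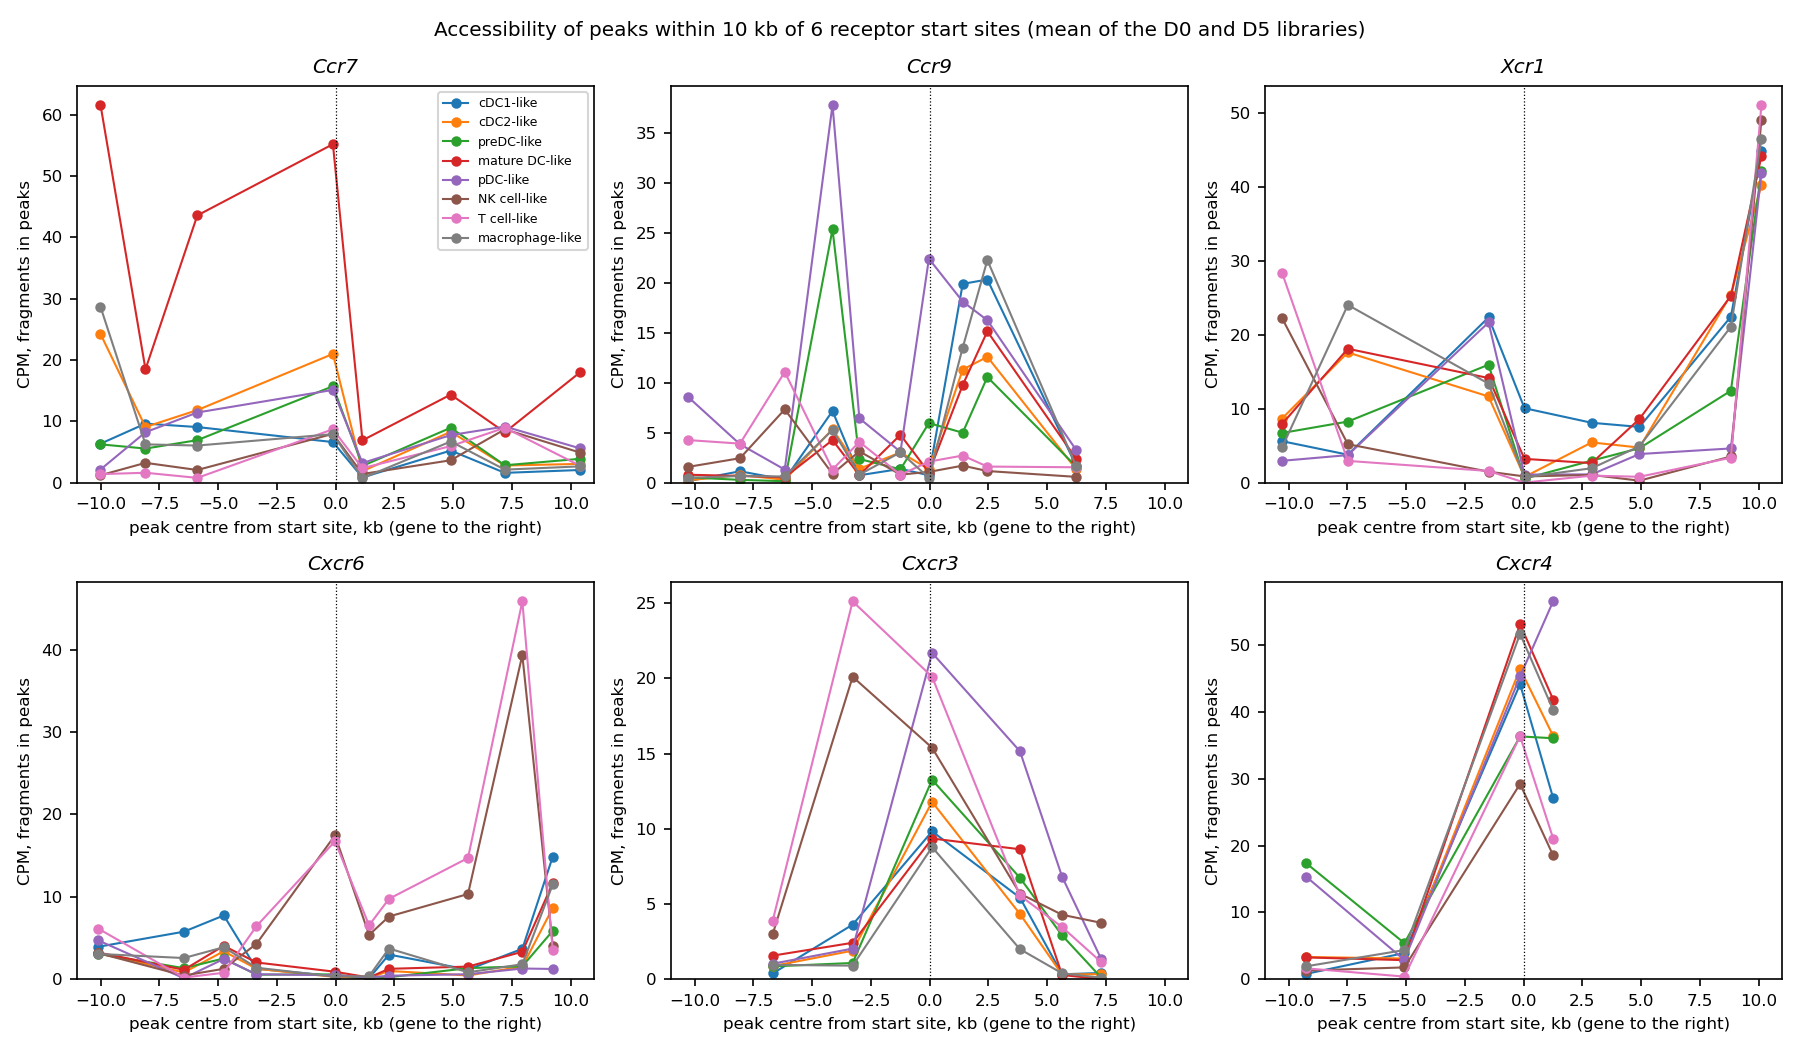
Accessibility as CPM of all fragments in peaks (mean of the D0 and D5 libraries) against the distance of the peak centre from the start site in kb, with the gene to the right, for 6 receptors and 8 classes. The strongest region near Ccr7 is highest in mature DC-like nuclei, that near Ccr9 in pDC-like nuclei and that near Cxcr6 in T cell-like nuclei, 2 regions inside the Ccr9 gene are highest in cDC1-like or macrophage-like nuclei, and the Cxcr4 start is open in all classes.

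The Cxcr4 start peak, chr1:128592025-128592877, was open in all classes and moved with the RNA in NK cell-like nuclei, at 23.9 at D0 and 34.6 at D5 (0.53, beyond counting error), and its whole window there went from 41.3 to 60.2. In macrophage-like nuclei the start peak had 45.3 and 58.2. The Ccr1 start peak, chr9:123968209-123969127, had 33.2 and 32.7 in macrophage-like and 27.6 and 29.8 in cDC2-like nuclei. The Cx3cr1 start peak, chr9:120067896-120068769, had 23.2 and 20.9 in preDC-like nuclei, and the region at -1402 bases, chr9:120069698-120070496, which lies nearer to the start of Gm33858, had 15.8 and 8.80 in preDC-like nuclei and at most 5.26 in the other classes, a lead over the second class that lay within counting error on both days. Near Ccr2, a region at -2228 bases, chr9:124098764-124099690, chosen after its values were seen, had 25.1 and 32.3 in pDC-like and 26.4 and 19.0 in preDC-like nuclei but 0.524 and 2.21 in macrophage-like nuclei. The region nearest to the Ccr2 start, at 1164 bases and likewise chosen later, had 13.1 and 10.3 in macrophage-like and 18.4 and 14.0 in preDC-like nuclei. The whole Ccr2 window held 15.6 and 14.3 in macrophage-like, 12.9 and 10.6 in cDC1-like and 12.2 and 11.5 in cDC2-like nuclei. PreDC-like nuclei, with 45.3 and 34.1, and pDC-like nuclei, with 30.6 and 38.6, held more over the window than macrophage-like nuclei, the class with the most Ccr2 RNA.

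Summed over 10 kb on each side of the start, accessibility and RNA were highest in the same class for Ccr7, Ccr9, Cxcr3 and Cxcr6 on both days, 4 of 9 receptors. At D5 Cxcr4 joined them, 5 of 9, only through neutrophil-like nuclei, a class too small to compare at D0. Among the 9 classes compared on both days, the Cxcr4 window at D5 was highest in nonclassical monocyte-like nuclei and its RNA in macrophage-like nuclei. The Cxcr3 windows of T cell-like (60.3 and 58.2) and NK cell-like nuclei (53.2 and 51.2) had overlapping intervals. The Xcr1 window was highest in nonclassical monocyte-like nuclei, 144 and 126, with intervals that overlapped those of cDC1-like nuclei. With 2 kb on each side, the Xcr1 window was highest in cDC1-like nuclei on both days, as its RNA was. The Cxcr3 window was then highest in pDC-like nuclei, unlike its RNA. Of 293 region and class pairs tested near the receptors, 24 were at least 1.5-fold higher at D5 and 45 lower, beside 7.98% and 14.4% of all regions and classes, and 14 and 23 lay beyond counting error, beside 4.94% and 6.26%, so the shares near the receptors were close to those of the whole libraries. Windows were not summed for other genes, so the counts of windows that follow have no background share. Of 76 windows and classes, 6 were higher at D5 beyond counting error, namely Cxcr4 in NK cell-like (0.54), mature DC-like (0.33) and cDC2-like nuclei (0.16), Cx3cr1 in cDC1-like nuclei (0.51) and Ccr2 (0.33) and Xcr1 (0.16) in pDC-like nuclei. The 9 that were lower were the Ccr7 window in macrophage-like nuclei, 75.0 and 47.1, the Xcr1 window in cDC1-like nuclei, 135 and 114, the Cx3cr1 window in T cell-like nuclei, 26.2 and 8.20, and the Ccr9 windows in preDC-like, cDC1-like and cDC2-like nuclei. The other 3 were those of Cxcr6 in cDC2-like (23.5 and 17.7), pDC-like (14.9 and 9.05) and macrophage-like nuclei (35.0 and 23.7), classes where Cxcr6 RNA was lower too. Cxcr6 RNA was also lower in cDC1-like, mature DC-like, NK cell-like and T cell-like nuclei, whose windows did not differ beyond counting error. In cDC1-like nuclei the RNA was 22.6 and 7.57 CPM and the window 41.3 and 42.4. With 2 kb on each side 2 windows were lower, and the Ccr9 window in preDC-like nuclei went from -0.47 to 0.036. Ccr7 in mature DC-like, Ccr9 in pDC-like and Cxcr6 in T cell-like nuclei kept windows of 223 and 229, 122 and 120.4, and 109 and 112, while the RNA of each was lower at D5.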

How the data were processed

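The deposited RNA and joint matrices were made by the authors with Cell Ranger ARC 2.0.2 on mm10 (per the file headers, cellranger 6.0.2 for RNA and cellranger-arc 2.0.2 for the joint matrices) and hold unnormalised counts: UMIs per gene, and transposase cut sites per peak called for each library. The 16260 D0 and 27873 D5 called barcodes held 44496348 and 94374499 UMIs and 215252467 and 239039209 peak counts. The D5 joint matrix was used without barcodes of its own, and its columns were joined to the RNA matrix because all 27873 columns held identical gene counts.

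The filters asked for 1000 UMIs or more and no more than 10% of UMIs from mitochondrial genes. Those with a Scrublet score of at least 0.2 were removed, 23.1% at D0 and 25.5% at D5. The 2 libraries were clustered together in scanpy 1.11.5 (2000 variable genes, 30 components, 15 neighbours, Leiden resolution 1). A cluster was named where the median level of a marker list, relative to the highest cluster, was at least 0.4, at least 3 markers reached 20 CPM, and the next class either was below 0.5 of it or had at least 2 fewer markers among the 10 leading genes (which named the T cell-like cluster, whose NK marker level was 0.912). The preDC-like cluster was named from a preDC list level of at least 0.3 with a pDC level below 0.2 and no other list at 0.4. These thresholds were set with the clusters in view, and 6 clusters stayed unnamed. Counts were summed per class and day (CPM). Intervals are exact Poisson, binomial and conditional binomial (scipy 1.17.1) at 95% and cover counting error only. A count of 0 allows up to 3 counts. Ratios were read for genes and regions with at least 20 counts over both days, in classes of at least 50 nuclei on both days. Cut sites were divided by 2 to give fragments, and peaks of the libraries that overlapped by at least 1 base were merged into 127216 regions. Start sites came from RefSeq GRCm38.p6. TMM factors came from edgeR 4.0.16 in R 4.3.3. Shares of nuclei were taken after thinning each nucleus to 1000 UMIs, leaving out no kept nucleus.

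The receptors, lists and markers were chosen with earlier results of these data known. All 9 members were named. Other genes were named by likeness (3 per member, at least 50 CPM in some class) or from the fixed family lists (at least 20 CPM), and peaks where they covered a start site or had the highest ratio of first to second class. The ratio and interval were tested on simulated data. Alternatives covered doublets, depth, resolution, mixed nuclei, thinning, TMM, the fold, the minimum count, the window and the peak sets. Some genes that these rules would name are not reported here.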

Additional observations from a re-analysis of the deposited data

Results flagged for a closer look

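For 3 receptors the day difference had opposite signs, both beyond counting error, in different classes. The difference between classes was not tested, since each class had 1 library per day. Ccr1 was higher at D5 in T cell-like nuclei by a log2 difference of 1.85, with 3 UMIs at D0, and lower in cDC2-like nuclei by -0.28. With TMM scaling the cDC2-like difference lay within counting error. In cDC2-like nuclei of 3000 or more UMIs, Ccr1 was 155 CPM at D0 and 153 CPM at D5, while the shallower groups were lower at D5. Ccr2 was higher in mature DC-like nuclei by 0.62 and lower in macrophage-like nuclei by -0.12, which turned to 0.11 with TMM scaling, so that the signs were then no longer opposite in these classes. Ccr7 was higher in nonclassical monocyte-like nuclei by 1.92, with 3 UMIs at D0, and lower in mature DC-like nuclei by -0.38.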

How the results depend on the processing

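No paired analysis was possible because each day had 1 library. For the same reason no replicate could be left out. Over all alternatives, 897 values stayed within or beyond counting error as in the main results, or kept their level or count. A further 50 fell within counting error, 38 moved beyond it, 40 values or counts moved and 5 turned. Direction was compared only for values beyond counting error in the main results. The turned values were those of Xcr1 in preDC-like nuclei (0.28) and Cxcr6 in NK cell-like nuclei (0.20) with at least 2000 UMIs per nucleus, Ccr1 in macrophage-like nuclei (-0.42) with 1000 to 2000 UMIs per nucleus, a setting chosen after seeing the data, Ccr2 in macrophage-like nuclei (0.11) with TMM, and the Ccr9 window in preDC-like nuclei (0.036) at 2 kb on each side. The cause was not tested.

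Receptor and class pairs beyond counting error, 18 higher and 29 lower of 74, became 10 and 19 of 62 with at least 2000 UMIs, 11 and 14 of 44 without nuclei that held 2 markers of another class, and 10 higher with 1000 to 2000 UMIs, where 58 pairs were tested. Fewer nuclei were left under each. Windows lower at D5, 9 in the main count, became 2 at 2 kb. The class with the highest level stayed first at D0 for 5 of the 5 receptors whose class could be compared with at least 2000 UMIs, at resolution 0.5 and without mixed nuclei, and at D5 for 5 of 7 without mixed nuclei (Ccr2 and Cx3cr1 differed) and for 6 of 9 with 1000 to 2000 UMIs. Summed over the classes, genes past 1.5-fold, 7336 higher and 16765 lower, became 32203 and 49620 at a minimum of 1 UMI, 11569 and 10952 with TMM, and 2376 and 5985 past 2-fold.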
